A study of Mus musculus with 20 samples.

Results

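The 8 genes of ketone body formation and acyl-CoA hydrolysis followed here in mouse liver were Bdh1, Acat1, Acot1, Acot2, Acot3, Acot4, Acot8 and Acot12. They were chosen by name, with earlier results of these data known. Each of the 8 was found once among the 38924 genes of the expression table. All 8 passed the filter on low values (FPKM, fragments of a gene scaled to its length and to the library's total, above 0.5 in at least 5 libraries), which left 14524 genes. The libraries came from 20 male mice labelled C57/BL6 (C57BL/6J for the WT mice in the study's methods), 5 per group, bought at 5 weeks of age, acclimated for 1 week and fed for 12 weeks. NDWT were wild type (WT) mice on the control diet, NDKO were TSP-1 null mice on the control diet, HFWT were WT mice on CDAHFD, a high fat diet defined in L-amino acids, deficient in choline and low in methionine, and HFKO were TSP-1 null mice on CDAHFD. The null allele removes thrombospondin I (gene Thbs1) in every cell, and the null line and the WT mice were purchased as separate lines, with no littermate breeding described. The questions were how CDAHFD changed these genes in each genotype, how the genotypes differed on each diet, and whether the diet effect differed between genotypes.

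In the liver, fatty acid oxidation in mitochondria yields acetyl-CoA. When it is plentiful, acetoacetyl-CoA thiolase (Acat1) joins acetyl-CoA units on the way to acetoacetate, and 3-hydroxybutyrate dehydrogenase (Bdh1) reduces acetoacetate to 3-hydroxybutyrate, the main ketone body released to blood. Acyl-CoA thioesterases split acyl-CoA into free acid and CoA. Acot1 is the cytosolic and Acot2 the mitochondrial long-chain enzyme, Acot3 and Acot4 are peroxisomal, the latter with succinyl-CoA among its substrates, Acot8 is a peroxisomal enzyme of broad chain length, and Acot12 splits acetyl-CoA in the cytosol. Several of these genes are known targets of the fatty acid receptor PPARα in rodent liver.

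Acot1 to Acot4 lie side by side on chromosome 12 of GRCm38, all on the plus strand, in the order Acot2 (83987861 to 83993873), Acot1 (84009502 to 84017670), Acot4 (84038379 to 84044723) and Acot3 (84052144 to 84059565). Bdh1 lies on chromosome 16 (31422280 to 31458901, plus strand), Acat1 on chromosome 9 (53580522 to 53610382, minus strand), Acot8 on chromosome 2 (164792768 to 164804882, minus strand) and Acot12 on chromosome 13 (91741512 to 91786148, plus strand). The 4 neighbours are copies of one another to different degrees. In GENCODE M21, the coding sequences of Acot1 (1257 bases without the stop codon) and Acot2 (1359 bases) were identical at 95.6% of 1236 aligned bases. Those of Acot3 and Acot4 were identical at 74.6% of 1261 aligned bases. Acot3 was closer to Acot1 (84.0% of 1257 aligned bases) and to Acot2 (84.5% of 1269) than to Acot4. The stretch of 120 bases in which Acot1 and Acot2 differed most is shown as an example of sequence in which a fragment can be assigned to 1 of the 2 genes. It holds 14 of their differences, and others lie outside it. Capitals mark the 14 differing bases, in coding exon sequence, counted from the first base of the start codon.
Acot1 coding bases 767 to 886: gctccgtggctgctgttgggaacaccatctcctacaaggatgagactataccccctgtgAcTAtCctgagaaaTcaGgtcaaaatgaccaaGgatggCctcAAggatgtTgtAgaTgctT
Acot2 coding bases 890 to 1009: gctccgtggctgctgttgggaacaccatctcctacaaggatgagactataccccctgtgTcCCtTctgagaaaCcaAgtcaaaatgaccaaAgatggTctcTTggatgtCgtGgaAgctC
Directly after this stretch, from coding base 887 of Acot1, the next 273 bases were identical in both genes. The libraries were read from both ends with 150 bases each on inserts of 250 to 350 bases, so some fragments within those 273 bases match both genes. Beyond a mention of uniquely mapped reads, how such fragments were counted is not given in the sources used here, and the split between Acot1 and Acot2 is uncertain to that extent. Of all 31-base words in the Acot1 transcripts, 16.7% also occurred in Acot2 and 6.90% in Acot3. Of those of Acot3, 5.23% also occurred in Acot4. No such word was shared between Bdh1, Acat1, Acot8 and Acot12 or between these and the chromosome 12 genes.

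The promoters of the 4 neighbours (from 250 bases before to 50 bases after the RefSeq start site, GRCm38.p6) are shown because these genes moved together in pairs. Capitals mark 2 motifs searched on both strands, the CCAAT box (CCAAT, or ATTGG on the other strand) and the nuclear receptor motif AGGTCA (or TGACCT).
Acot1, chr12:84009252-84009551, plus strand: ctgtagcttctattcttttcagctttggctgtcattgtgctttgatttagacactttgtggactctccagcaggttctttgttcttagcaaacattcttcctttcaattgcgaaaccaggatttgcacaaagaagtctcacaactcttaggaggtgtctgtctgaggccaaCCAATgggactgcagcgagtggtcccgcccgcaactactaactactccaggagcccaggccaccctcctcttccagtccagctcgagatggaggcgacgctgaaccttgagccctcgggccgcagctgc
Acot2, chr12:83987611-83987910, plus strand: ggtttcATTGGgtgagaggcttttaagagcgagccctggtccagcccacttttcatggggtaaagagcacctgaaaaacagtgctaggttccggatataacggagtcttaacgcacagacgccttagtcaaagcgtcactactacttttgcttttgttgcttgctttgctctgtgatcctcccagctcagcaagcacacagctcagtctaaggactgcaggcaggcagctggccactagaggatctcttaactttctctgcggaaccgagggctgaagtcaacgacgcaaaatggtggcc
Acot4, chr12:84038129-84038428, plus strand: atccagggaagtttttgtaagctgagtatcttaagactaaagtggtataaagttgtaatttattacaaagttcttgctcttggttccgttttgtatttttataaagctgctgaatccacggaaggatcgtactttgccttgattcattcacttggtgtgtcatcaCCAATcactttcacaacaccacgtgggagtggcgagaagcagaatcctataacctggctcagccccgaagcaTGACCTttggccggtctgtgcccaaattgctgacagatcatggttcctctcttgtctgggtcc
Acot3, chr12:84051894-84052193, plus strand: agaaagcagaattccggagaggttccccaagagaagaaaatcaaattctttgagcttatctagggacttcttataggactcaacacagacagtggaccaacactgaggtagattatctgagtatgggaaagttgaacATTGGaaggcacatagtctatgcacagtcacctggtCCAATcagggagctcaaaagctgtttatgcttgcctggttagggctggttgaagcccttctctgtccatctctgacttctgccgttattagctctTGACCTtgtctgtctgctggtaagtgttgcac
In contrast to their coding sequences, the Acot1 and Acot2 promoters aligned at 146 of 300 bases, and those of Acot3 and Acot4 at 149, within the range of 131 to 157 over all pairs of the 7 members found in the promoter table. A CCAAT box lay in 5 of the 7 promoters and in 37.4% of all 32851 promoters. The Acot1, Acot3 and Acot4 promoters held it in the forward direction at positions -79, -77 and -85 from the start site. AGGTCA lay in 3 of the 7, those of Acot3, Acot4 and Acot12, and in 16.3% of all promoters. No member promoter held the direct repeat DR1 (a pair of AGGTCA motifs 1 base apart, in 0.0396% of all promoters). None held its form with any base in place of each T (0.381%). A DR1 match contains AGGTCA by construction, while the looser form can match without it. These matches describe the letters of 300-base windows only.

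Libraries held 15641545 to 23276322 assigned fragments, and the members were covered by 47 fragments (Acot3 in the lowest HFWT library) to 14580 fragments (Acat1 in the highest NDWT library). Thbs1, the targeted gene, went against the labels on the control diet. It stood at 0.197 ± 0.103 FPKM (SD, n = 5) in NDWT and at 1.30 ± 0.390 in NDKO, and at 4.62 ± 1.22 in HFWT and 3.44 ± 0.547 in HFKO. Which exons the null allele lacks is not given in the sources used here, so whole-gene FPKM may count what remains. Genotype comparisons below therefore refer to libraries labelled TSP-1 null. All 8 hepatocyte markers were detected, with summed levels of 33956 to 41162 FPKM (NDWT), 38243 to 45960 (NDKO), 26093 to 37588 (HFWT) and 34288 to 45673 (HFKO). Sums for other cells were higher on CDAHFD, for the 6 macrophage markers from 170 to 290 FPKM on the control diet to 611 to 1356, for the 7 stellate cell markers from 52.4 to 72.1 to 202 to 367, and for the 5 cholangiocyte markers from 12.4 to 18.002 to 181 to 488, with no marker of these 3 lists at 0. The 5 endothelial markers summed to 36.2 to 48.5 FPKM on the control diet and to 42.2 to 63.9 on CDAHFD, the 4 lymphocyte markers to 0.976 to 3.75 and 4.68 to 9.17, and the 3 neutrophil markers to 0.716 to 3.92 and 10.4 to 29.7, with 1 neutrophil marker at 0 in every NDWT and HFWT library. Within the lists single markers differed. By diet 1 of the 8 hepatocyte markers was called lower in WT and 3 in labelled TSP-1 null mice, or 7 and 6 with median of ratios scaling, and none higher. Of all tested genes 4.62% and 4.0% were called lower, or 15.4% and 13.6% with that scaling. Named after its values were seen, Serpina1c fell from 827 ± 55.7 FPKM (SD, n = 5) to 257 ± 45.3 in WT (log2FC -1.70) and had a log2FC of -1.44 in labelled TSP-1 null mice, while Alb makes up most of the hepatocyte sum. Of the 6 macrophage markers 4 rose and 1 fell in WT, and 5 rose and 1 fell in labelled TSP-1 null mice (4 and 1 with median of ratios scaling). Of all tested genes 44.1% and 41.9% were called higher, or 22.7% and 22.2% with that scaling. The macrophage marker that fell, the Kupffer cell gene Clec4f, had log2FC of -1.22 and -0.77, and most of the macrophage sum on CDAHFD came from Lyz2 (870 ± 99.3 FPKM in HFWT). For the first gene of each list the WT diet log2FC was -0.13 for Alb (not called), 1.32 for Adgre1, 2.22 for Dcn, 0.39 for Pecam1 (not called), 3.88 for Krt19, 2.02 for Cd3e and 2.77 for S100a8. In bulk liver, fewer hepatocytes and less RNA per hepatocyte cannot be told apart, and the part of these shifts in the diet results was not tested.

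CDAHFD lowered 7 of the 8 members in WT liver, in all but Bdh1 (limma on log2(FPKM + 0.1), Benjamini-Hochberg FDR under 0.05 and absolute log2 fold change, log2FC, above 0.58). Of all tested genes, 4.62% were called lower and 44.1% higher in this comparison, 48.8% in either direction. FPKM are shares of a library, and the median log2FC of all genes was 0.53 in WT and 0.50 in labelled TSP-1 null mice. After median of ratios scaling, which sets that median near 0, 15.4% of genes were called lower and 22.7% higher in WT, and the same count of 7 members was called lower. The members' median log2FC was -1.03 against 0.53 for all genes. In labelled TSP-1 null mice 4 members were lower (Acot1, Acot3, Acot4 and Acot12, against 4.0% of all genes) and 1, Bdh1, was higher (against 41.9%), together 5 of 8 against 45.9% in either direction. Without a fold change threshold 7 of 8 passed, against 71.6% of genes. With median of ratios scaling this became 6 members lower and none higher, since Acat1 and Acot8 joined and Bdh1 left, against 13.6% of genes lower and 22.2% higher. The members' median there was -0.66. These diet comparisons share no mice, whereas each genotype comparison shares its groups with them.

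**Figure D1:**
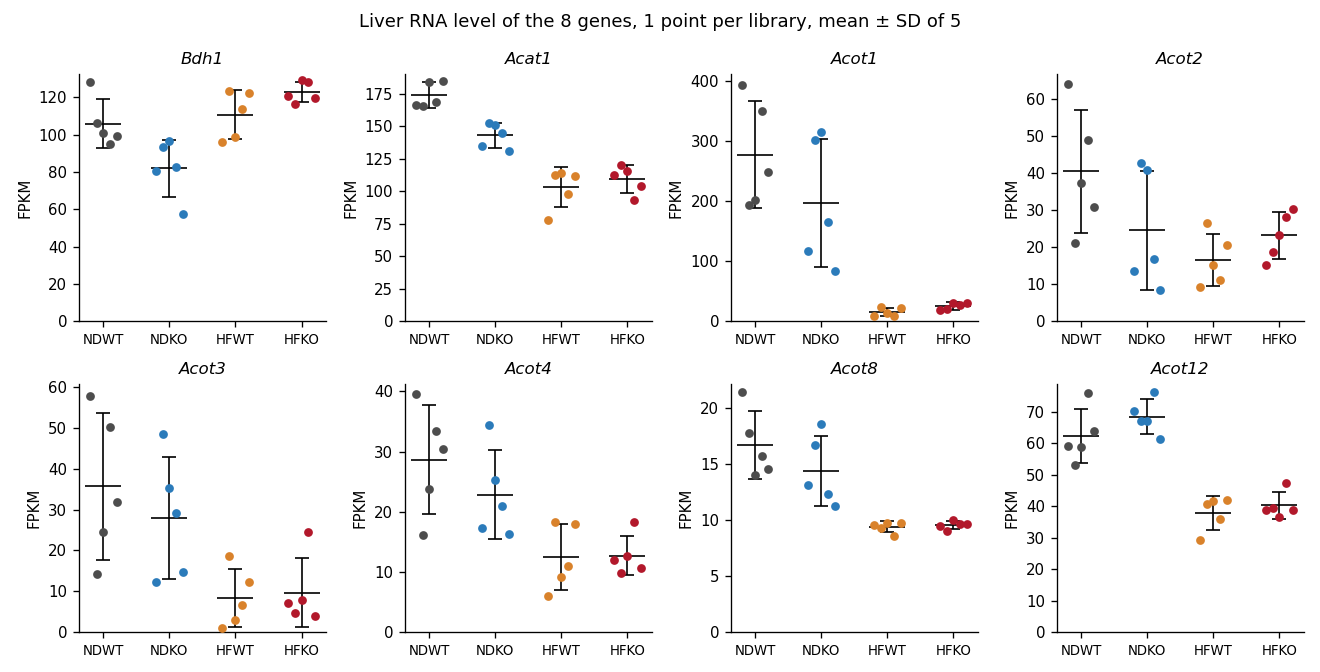
FPKM (y axis, from 0) of the 8 genes in each of the 20 libraries, 1 point per mouse, with the mean and SD of the 5 libraries of a group. All 10 CDAHFD libraries of Acot1 lie at 31.2 FPKM or below and all 10 control diet libraries at 83.1 or above, whereas the 4 groups of Bdh1 span 57.5 to 129.

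Among the ketogenic enzymes, Acat1 fell with CDAHFD while Bdh1 did not. Acat1 measured 167, 165, 184, 168 and 185 FPKM in NDWT mice 1 to 5 and 135, 153, 151, 145 and 131 in NDKO. On CDAHFD it measured 78.0, 113, 114, 98.2 and 112 FPKM in HFWT and 113, 121, 115, 93.3 and 104 in HFKO. Neither diet comparison had overlapping groups, and the NDKO values also lay below all NDWT values. The fall was 1.70-fold in WT (log2FC -0.77, SE 0.09, FDR 5.48e-07). In labelled TSP-1 null mice it was 1.31-fold (log2FC -0.39, SE 0.09, FDR 0.00106), under the fold threshold, and -0.92 and called with median of ratios scaling.

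Bdh1 measured 128, 106, 101, 94.8 and 99.4 FPKM in NDWT mice 1 to 5 and 80.5, 93.2, 96.5, 82.8 and 57.5 in NDKO. In HFWT it measured 95.9, 124, 98.7, 114 and 122 FPKM and in HFKO 121, 116, 129, 128 and 119.6. The WT groups overlapped on both sides, whereas every HFKO value lay above every NDKO value. In WT the log2FC was 0.07 (SE 0.12, 95% confidence interval -0.18 to 0.31, FDR 0.622), and it turned to -0.50 (FDR 0.0016) with median of ratios scaling. In labelled TSP-1 null mice Bdh1 rose 1.52-fold (log2FC 0.60, SE 0.12, FDR 0.000131), a call that median of ratios scaling removed (log2FC 0.07, FDR 0.658) and that was lost without NDKO mouse 5 (log2FC 0.48). The antisense gene Gm15743 overlaps Bdh1, at a mean of 1.67 FPKM over the 20 libraries. A ratio of 2 genes within a library is free of such scaling. Acat1 over Bdh1 was 1.66 ± 0.236 (SD, n = 5) in NDWT and 0.933 ± 0.131 in HFWT, and 1.78 ± 0.285 in NDKO and 0.892 ± 0.111 in HFKO, without overlap between the diets in either genotype (two-sided exact permutation test, p = 0.00794, the smallest that 252 arrangements allow, adjusted p = 0.0238 over 12 ratio tests chosen after the values were seen). The balance of the thiolase to the dehydrogenase RNA shifted by a log2 difference of -0.83 in WT and -0.99 in labelled TSP-1 null mice.

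Acot1 showed the largest diet effect of the 8 genes in both genotypes. It measured 393, 194, 201, 349 and 248 FPKM in NDWT mice 1 to 5 and 117, 302, 315, 165 and 83.1 in NDKO. On CDAHFD it measured 8.83, 24.2, 14.4, 8.39 and 21.8 FPKM in HFWT and 18.8, 19.9, 31.2, 27.3 and 30.6 in HFKO. The groups did not overlap between diets in either genotype, while they did between genotypes on each diet. Acot1 was 18.7-fold lower in WT (log2FC -4.22, SE 0.36, FDR 3.85e-09) and 6.88-fold lower in labelled TSP-1 null mice (log2FC -2.78, SE 0.36, FDR 1.16e-06). With single mice left out, these log2FC ranged from -4.42 to -4.04 and from -3.05 to -2.57.

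Acot2, the mitochondrial copy, started from a lower level and moved less. It measured 64.0, 21.1, 37.3, 48.9 and 30.9 FPKM in NDWT mice 1 to 5 and 13.7, 42.7, 40.9, 16.9 and 8.42 in NDKO. On CDAHFD it measured 9.27, 26.4, 15.2, 11.3 and 20.6 FPKM in HFWT and 15.3, 18.8, 23.4, 28.1 and 30.2 in HFKO. All groups overlapped, and the NDKO libraries fell into a pair above 40 FPKM (mice 2 and 3) and 3 below 17, the same 2 mice that were highest for Acot1. Acot2 was 2.44-fold lower on CDAHFD in WT (log2FC -1.29, SE 0.40, FDR 0.00763). In labelled TSP-1 null mice its log2FC was 0.15 (SE 0.40, 95% confidence interval -0.70 to 0.99, FDR 0.754), which turned to -0.39 with median of ratios scaling (FDR 0.433) and to -0.17 without NDKO mouse 5.

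The ratio of Acot1 to Acot2 fell from 7.18 ± 1.502 (SD, n = 5) in NDWT to 0.924 ± 0.114 in HFWT and from 8.59 ± 1.23 in NDKO to 1.12 ± 0.153 in HFKO. The lowest ratio on the control diet was 5.40 and the highest on CDAHFD 1.33. The log2 difference was -2.94 in both genotypes (exact permutation p = 0.00794, the smallest possible, adjusted p = 0.0238). Between genotypes the ratio differed by a log2 of 0.27 on the control diet (exact permutation p = 0.135, adjusted p = 0.202) and of 0.28 on CDAHFD (exact permutation p = 0.0476, adjusted p = 0.0816), with overlapping groups in both. Fragments of one gene counted for the other would move this ratio, and their part was not tested.

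**Figure D2:**
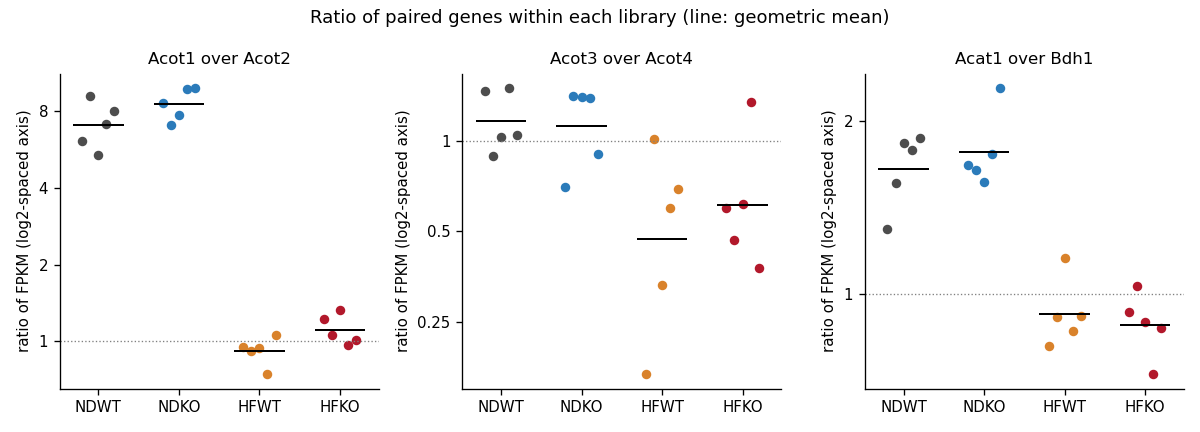
Ratio of FPKM of 2 genes within each library (y axis, log2-spaced) in the 4 groups, 1 point per library, with a line at the geometric mean. Acot1 over Acot2 lies between 5.40 and 9.86 on the control diet and between 0.744 and 1.33 on CDAHFD. Acat1 over Bdh1 is split by diet in the same way, and Acot3 over Acot4 overlaps.

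Acot3 and Acot4, the peroxisomal pair of the same cluster, were lower on CDAHFD with wide spread between mice. Acot3 measured 57.8, 14.3, 24.6, 50.2 and 31.8 FPKM in NDWT mice 1 to 5 and 12.2, 48.4, 35.3, 29.1 and 14.8 in NDKO. On CDAHFD it measured 1.01, 18.7, 3.07, 6.59 and 12.3 FPKM in HFWT and 7.21, 4.62, 7.78, 24.5 and 4.035 in HFKO. The highest HFWT and HFKO values lay above the lowest control diet values of the same genotype, so the groups overlapped. Acot3 was 5.70-fold lower in WT (log2FC -2.51, SE 0.65, FDR 0.00181) and 3.19-fold lower in labelled TSP-1 null mice (log2FC -1.67, SE 0.65, FDR 0.0267). The second of these calls was lost without NDKO mouse 2, NDKO mouse 3, HFKO mouse 2 or HFKO mouse 5, with FDR from 0.0569 to 0.0701 and log2FC from -1.54 to -1.43.

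Acot4 ranged from 16.1 to 39.5 FPKM in NDWT, from 16.3 to 34.4 in NDKO, from 6.03 to 18.3 in HFWT and from 9.87 to 18.2 in HFKO, again with overlap between the diets. It was 2.37-fold lower in WT (log2FC -1.24, SE 0.29, FDR 0.0008) and 1.77-fold lower in labelled TSP-1 null mice (log2FC -0.82, SE 0.29, FDR 0.0169), the latter lost without NDKO mouse 2 (log2FC -0.66, FDR 0.0553). Acot3 over Acot4 was 1.19 ± 0.277 (SD, n = 5) in NDWT and 0.560 ± 0.329 in HFWT (log2 difference -1.30, exact permutation p = 0.0159, adjusted p = 0.0381). In NDKO it was 1.16 ± 0.333 and in HFKO 0.680 ± 0.383 (log2 difference -0.86, exact permutation p = 0.0397, adjusted p = 0.0794). A non-coding gene on the opposite strand, 4732463B04Rik, overlaps both Acot3 and Acot4, at a mean of 1.95 FPKM over the 20 libraries. The library kit kept strand, but the strand setting of the counting is not given in the sources used here.

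Summed, Acot1 to Acot4 stood at 382 ± 131 FPKM (SD, n = 5) in NDWT and 272 ± 143 in NDKO. The sums were 52.9 ± 26.1 in HFWT mice and 71.0 ± 18.7 in HFKO mice, a difference that was not itself tested. Acot5 and Acot6, of the same family, are not in these sums. Acot6 was called higher by diet in both genotypes (log2FC 1.16 in WT and 1.69 in labelled TSP-1 null mice). Acot1 made up 73.0 ± 3.52% of the sum in NDWT and 71.6 ± 2.93% in NDKO, but 29.9 ± 5.18% in HFWT and 36.5 ± 5.47% in HFKO. The share did not overlap between the diets in either genotype, from 67.8% to 79.0% on the control diet and from 22.5% to 41.6% on CDAHFD, and it depends on the gene lengths in the table.

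**Figure D3:**
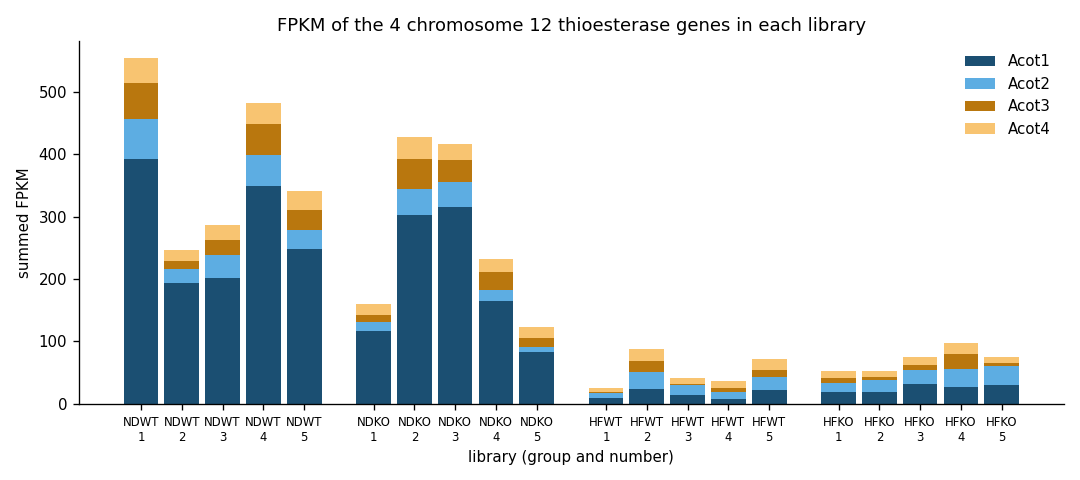
Stacked FPKM (y axis, from 0) of Acot1, Acot2, Acot3 and Acot4 in each of the 20 libraries, ordered by group and mouse number. The sums range from 123 to 554 on the control diet and from 25.1 to 98.1 on CDAHFD, and most of the loss is in Acot1, the lowest segment of each bar.

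The 2 thioesterases encoded elsewhere fell with little spread. Acot8 ranged from 14.0 to 21.4 FPKM in NDWT and from 11.2 to 18.6 in NDKO, but from 8.57 to 9.75 in HFWT mice and from 9.04 to 9.95 in HFKO mice. No CDAHFD value reached any control diet value. Acot8 was 1.75-fold lower in WT (log2FC -0.81, SE 0.12, FDR 6.9e-06) and 1.47-fold lower in labelled TSP-1 null mice (log2FC -0.56, SE 0.12, FDR 0.000415), under the fold threshold but called with median of ratios scaling (log2FC -1.09). The Snx21 gene overlaps Acot8 on the opposite strand, at a mean of 3.9 FPKM over the 20 libraries. Acot12 ranged from 53.2 to 76.1 FPKM in NDWT, from 61.4 to 76.4 in NDKO, from 29.3 to 42.0 in HFWT and from 36.6 to 47.5 in HFKO, also without overlap between diets. Small non-coding genes and the antisense gene 4833422C13Rik overlap Acot12, none above a mean of 2.93 FPKM over the 20 libraries. Its fold was nearly equal in both genotypes, 1.64-fold lower in WT (log2FC -0.71, SE 0.10, FDR 5.25e-06) and 1.70-fold lower in labelled TSP-1 null mice (log2FC -0.77, SE 0.10, FDR 2.42e-06), with an interaction of -0.05 (95% confidence interval -0.36 to 0.26). Groups did not overlap for 4 of 8 members between the WT diets and for 5 of 8 between the labelled TSP-1 null diets, against 56.2% and 57.8% of all genes.

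**Figure D4:**
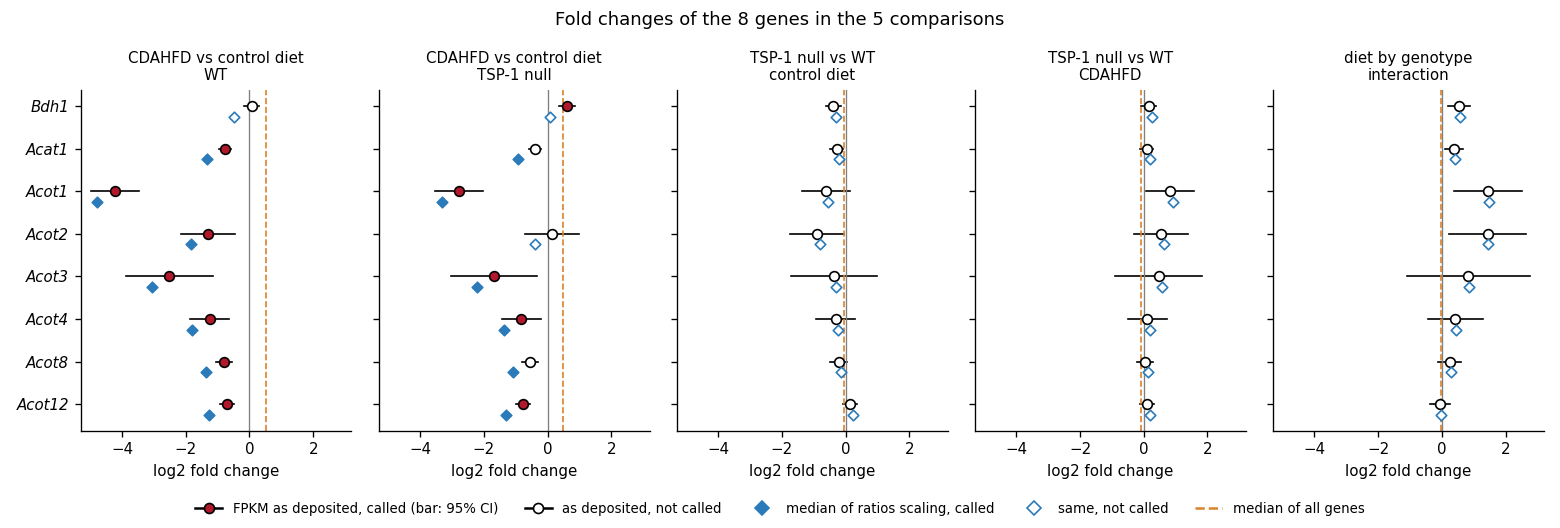
log2 fold change (x axis) of the 8 genes in the 5 comparisons, with circles and 95% confidence intervals for FPKM as deposited (red where called, open where not), blue diamonds for median of ratios scaling (filled where called) and a dashed line at the median of all genes. In WT 7 genes are called lower on both scales, and no gene is called in either genotype comparison or in the interaction.

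Between genotypes no member was called on the control diet (0 of 8, against 4.77% of all genes, 3.03% lower and 1.74% higher, or 2.27% lower and 2.4% higher with median of ratios scaling), although 3 of 8 had an unadjusted p under 0.05 in limma, against 27.3% of genes, and voom on the recovered fragments also called 0. The 3 were Bdh1, Acat1 and Acot2, all lower in labelled TSP-1 null mice. Bdh1 had a log2FC of -0.38 (SE 0.12, FDR 0.0368, 0.0219 to 0.115 over the alternatives), which passed the FDR, as did 13.1% of all genes, but not the fold threshold. Acat1 had a log2FC of -0.28 (SE 0.09, FDR 0.0523, 0.0136 to 0.234 over the alternatives), and its groups did not overlap, the only member of 8 for which this held, against 9.03% of all genes. Acot2 had a log2FC of -0.89 with a wide 95% confidence interval of -1.74 to -0.05 (FDR 0.158). Acot12 alone had a positive value on this diet, 0.14 (95% confidence interval -0.08 to 0.36).

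On CDAHFD again no member was called between genotypes (0 of 8, against 0.496% of all genes, 0.33% lower and 0.165% higher, or 0.186% lower and 0.262% higher with median of ratios scaling). One, Acot1, had an unadjusted p under 0.05 in limma, against 17.2% of genes, and voom called 0. All 8 members had a positive log2FC there, with a median of 0.13 against -0.10 for all genes. Several members varied together between mice (below), so these are not 8 independent observations. Acot1 had a log2FC of 0.82 (SE 0.36, FDR 0.251) with HFKO values of 18.8 to 31.2 FPKM and HFWT values of 8.39 to 24.2. For Acat1, Acot3, Acot4 and Acot8 the sign turned when single CDAHFD mice were left out. No member was without overlap, against 4.98% of genes.

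The diet effect did not pass the test for a difference between genotypes in any member (0 of 8, against 0.647% of all genes, and voom also 0). In limma 4 of 8 had an unadjusted p under 0.05 for the interaction, against 15.1% of genes, and these were Acot1, Acot2, Acat1 and Bdh1, all with positive values. Acot1 had an interaction of 1.44 on the log2 scale (SE 0.51, FDR 0.177) and Acot2 of 1.43 (SE 0.57, FDR 0.235). Bdh1 had 0.54 (SE 0.17, FDR 0.123) and Acat1 0.38 (SE 0.13, FDR 0.178). In 7 of 8 members the value was positive, with a median of 0.48 against -0.03 for all genes, and here too the members are not independent observations. The confidence interval of Acot1 ran from 0.38 to 2.505. This contrast uses the same 20 libraries as the comparisons above.

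The chromosome 12 genes varied far more between mice of a group than the other members. The SD within groups on the log2 scale was 0.62 for Acot1, 0.70 for Acot2, 1.12 for Acot3 and 0.50 for Acot4, against 0.22 for the median gene. It was 0.15 for Acat1, 0.17 for Acot12, 0.19 for Bdh1 and 0.20 for Acot8. The variation was shared most closely in pairs. Over the 20 libraries, as deviations from the group means, Acot1 and Acot2 had a Pearson r of 0.95 (Spearman rho 0.94) and Acot3 and Acot4 an r of 0.96 (rho 0.95). Across the pairs r was lower, from 0.68 (Acot1 with Acot3) to 0.79 (Acot2 with Acot4). The gap was small over the 10 control diet libraries, with r of 0.85 to 0.89 across the pairs and 0.96 within both. It was wider over the 10 CDAHFD libraries, with 0.61 to 0.76 across the pairs and 0.94 and 0.98 within them. Over all 20 libraries, r values like those across the pairs were not limited to neighbours. Bdh1, on another chromosome, had an r of 0.73 with Acot1, 0.75 with Acot2, 0.61 with Acot3 and 0.64 with Acot4, and of 0.72 with Acot8, while Acat1 had an r of 0.45 with Acot1 and of 0.38 with Acot3. Over the 10 CDAHFD libraries alone Bdh1 had an r of 0.90 with Acot3 and of 0.92 with Acot4, but of -0.048 with Acot8. The points of a library share its depth and its tissue piece, and the identical stretch of Acot1 and Acot2 can add to their r, so these values are descriptions.

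**Figure D5:**
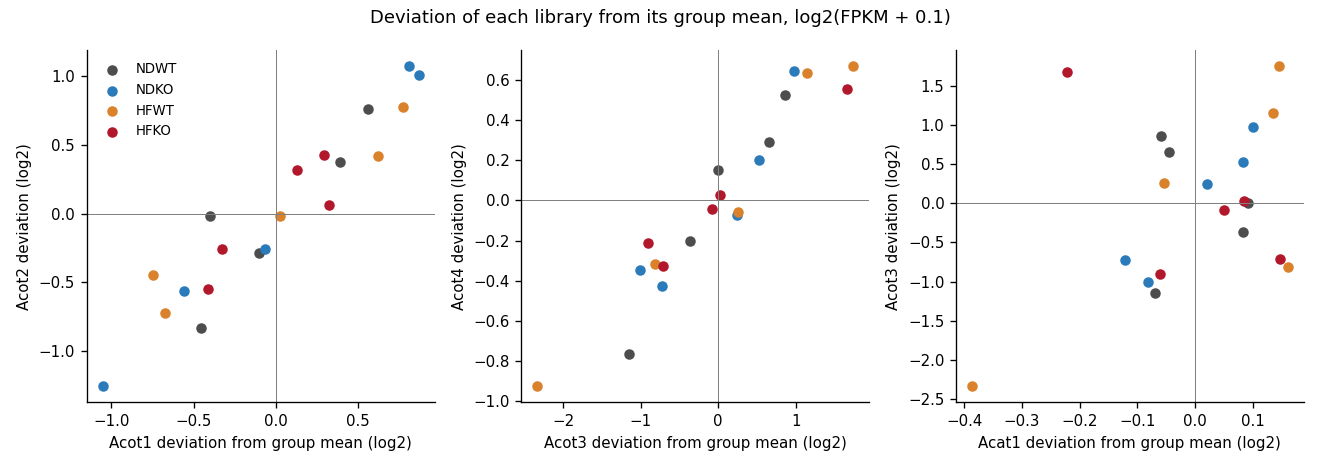
Deviation of each of the 20 libraries from its group mean on the log2(FPKM + 0.1) scale, for Acot1 against Acot2, Acot3 against Acot4, and Acat1 against Acot3 (x against y axis), coloured by group. The first pair has an r of 0.95, the second of 0.96 and the third of 0.38.

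Beyond one another, the tested genes whose deviations were most like these were Gm15441 (r 0.93 with both), Aldh3a2 (0.91 with Acot1), a fatty aldehyde dehydrogenase, and Slc22a5 (0.93 with Acot2), the carnitine transporter. For Acot3 and Acot4 the next gene was Rab9 (0.95 and 0.90), followed by Pank1 (0.85 with Acot3) and Gyk (0.86 with Acot4). Bdh1 was most like Mgll (0.88), Dhrs4 (0.86) and Acaa1b (0.84), and Acat1 most like Cyp4a10 (0.81), Etfdh (0.80) and Vnn3 (0.80). Without the 2 libraries furthest from the median for Acat1, these 3 r values were 0.66, 0.73 and 0.48. The r with Vnn3 thus fell most, while its Spearman rho over all 20 libraries was 0.68. Acot8 was most like Ppcs (0.92), Bloc1s4 (0.90) and Acads (0.89), and Acot12 most like Pnpla8, Smim13 and Hspa9 (0.86, 0.86 and 0.85). These were the highest of 14524 genes over 20 libraries, and such maxima are high by selection. HFWT mouse 1 had the lowest value of its group for 6 of the 8 members (Bdh1, Acat1, Acot2, Acot3, Acot4 and Acot12) and the lowest hepatocyte marker sum of all libraries, 26093 FPKM. Without it, the WT log2FC was -1.93 for Acot3, -1.01 for Acot4 and -0.67 for Acat1, and all 7 calls held.

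Among 11 partners in ketone body metabolism, 9 were tested. In WT 3 rose and 2 fell, and in labelled TSP-1 null mice 5 rose and 1 fell, splits that turned to 1 higher and 4 lower, and 1 higher and 3 lower, with median of ratios scaling. Their median log2FC was 0.55 and 0.65, near the 0.53 and 0.50 of all genes, of which 44.1% and 41.9% were called higher and 4.62% and 4.0% lower. With median of ratios scaling, 22.7% and 22.2% of all genes were called higher and 15.4% and 13.6% lower. Oxct1, the ketone-using transferase that hepatocytes largely lack, rose on both scales, from 1.00 ± 0.180 FPKM (SD, n = 5) in NDWT to 8.32 ± 1.30 in HFWT (log2FC 2.94, SE 0.15) and from 0.947 ± 0.115 in NDKO to 5.96 ± 1.28 in HFKO (log2FC 2.51, SE 0.15). The macrophage, stellate cell and cholangiocyte sums rose in the same libraries, and their part in the Oxct1 value was not tested. Acat2, the cytosolic thiolase, had log2FC of 0.79 and 1.00, called only on the deposited scale (0.24 and 0.47 after median of ratios scaling). Bdh2, a cytosolic relative of Bdh1, was the one partner called between genotypes, lower in NDKO (3.06 ± 1.25 FPKM) than in NDWT (4.82 ± 0.909, log2FC -0.70, SE 0.19, FDR 0.0225).

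Of 12 other acyl-CoA thioesterases 9 were tested, with 4 higher and 1 lower in WT and 4 higher and 0 lower in labelled TSP-1 null mice, or 3 higher and 2 lower, and 3 higher and 3 lower, with median of ratios scaling. Of all genes 44.1% and 41.9% were called higher and 4.62% and 4.0% lower. With that scaling the shares were 22.7% and 22.2% higher and 15.4% and 13.6% lower. On the deposited scale, 4 of 9 higher lay near the background and says nothing about these genes as a group. Acot9, a mitochondrial enzyme, rose from 1.47 ± 0.193 FPKM (SD, n = 5) to 6.33 ± 0.563 in WT (log2FC 2.04, SE 0.16) and from 0.981 ± 0.283 to 5.31 ± 0.917 in labelled TSP-1 null mice (log2FC 2.36, SE 0.16). Ppt1, a lysosomal thioesterase, rose by log2FC of 1.24 and 1.33. Acot6, of the same family as Acot1 to Acot4, rose by log2FC of 1.16 and 1.69 from a low level, 0.361 ± 0.221 FPKM in NDWT. All 3 stayed called with median of ratios scaling. Acot5 was not tested, with a mean of at most 0.0276 FPKM in any group.

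Among 13 genes of CoA supply and breakdown, all tested, 1 rose and 4 fell in WT and 0 rose and 3 fell in labelled TSP-1 null mice, or 0 and 8, and 0 and 5, with median of ratios scaling. Of all genes 4.62% and 4.0% were called lower and 44.1% and 41.9% higher, or 15.4% and 13.6% lower and 22.7% and 22.2% higher with that scaling. Pank1, a pantothenate kinase that starts CoA synthesis, fell from 105 ± 8.67 FPKM (SD, n = 5) to 43.1 ± 6.10 in WT (log2FC -1.29, SE 0.10) and by log2FC -0.92 in labelled TSP-1 null mice. Slc25a42, the mitochondrial CoA carrier, had log2FC of -1.43 and -0.99, and Nudt7, a peroxisomal CoA hydrolase, of -1.61 and -1.13, all called. Nudt7 and Vnn1, a pantetheinase, were also lower in NDKO than in NDWT (log2FC -0.85, FDR 0.0202, and -1.35, FDR 0.0017). Dbi, the acyl-CoA binding protein, was called for the interaction (0.66, SE 0.14, FDR 0.0299). Of 16 PPARα-responsive genes, all tested, 12 fell and 0 rose in WT and 7 fell and 0 rose in labelled TSP-1 null mice, 14 and 14 with median of ratios scaling, against 4.62% and 4.0% of all genes called lower, or 15.4% and 13.6%. Ppara itself had log2FC of -1.22 and -0.65, both called. Creb3l3, a liver transcription factor, had -0.83 and -0.55, the second under the fold threshold on the deposited scale. Vnn1 is in both lists and was the only PPARα-responsive gene called between genotypes.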

How the data were processed

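RNA was sequenced from 20 liver libraries, 5 mice per group. The deposited table holds FPKM made by the authors with QuickRNASeq, without further scaling between libraries. The submitters' processing notes name STAR 2.5.2, featureCounts and Subread 1.5.1, and the build GRCh38, but the coordinates in the table are mouse GRCm38 and overlap GENCODE M21 for all members. The lobe sampled is the right medial one in the series description and the right lateral one in the paper. Groups follow the sample labels. Fragments per gene were recovered from FPKM and gene length. Of the values checked, 100% came out whole within 0.05 plus the error from rounding of the FPKM. The library totals were fitted to the same values, so this is not an independent check. Intervals cover the spread between mice, and there were no molecular identifiers.

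Moderated linear models (limma 3.58.1, R 4.3.3, with a mean-variance trend) were fitted to log2(FPKM + 0.1) of all 20 libraries with a mean per group, for 14524 genes. The code was run on simulated data in which few genes changed, in a single group, with no shift of the median of all genes. That run does not bear on the diet calls here, where the median shifted. A gene was called where its two-sided p, adjusted by Benjamini and Hochberg over all tested genes (FDR), was under 0.05 and its absolute log2FC above 0.58. Fold changes on this scale understate those of low genes. Ratios within libraries, added after the values were seen, were compared by two-sided exact permutation tests. Alternatives were pseudocounts of 0.01 and 1, no filter, FPKM above 1 in at least 5 libraries, median of ratios scaling, the FDR alone, a fit of only the groups compared, a replicate block, voom on recovered fragments and each library left out. The members, gene lists and tests were chosen with earlier results of these data known. Of each list, the 3 genes with the lowest FDR among those called by diet were to be named (some are not reported here), and every gene called between genotypes or for the interaction. For each member, the 3 genes with the highest r over 20 libraries were named. Of each cell type marker list the first gene was named. Acot5, Gm15743, 4732463B04Rik, 4833422C13Rik and Snx21 were named for their sequence or position. Sequences come from GENCODE M21 transcripts and RefSeq promoters (7 of 8 members matched). Python 3.11.15 was used with scipy 1.17.1, numpy 2.4.6, matplotlib 3.10.9 and pandas 2.3.3.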

Additional observations from a re-analysis of the deposited data

Results flagged for a closer look

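In 32 groups of 5 libraries (8 genes in 4 groups), 2 held a library far from the others by Dixon's test at the 95% level, a rule that chance meets in about 1 of 20 groups. Both were HFKO mouse 4. Acot3 stood at 24.5 FPKM there against 4.035 to 7.78 in the other HFKO libraries, and Acot12 at 47.5 FPKM against 36.6 to 39.4. The same library had the highest hepatocyte marker sum of HFKO, 45673 FPKM, and the lowest macrophage and neutrophil marker sums, 611 and 10.4 FPKM, while its Acat1 value of 93.3 FPKM was the lowest of the group. The part of these differences in the values was not tested. Without this library the labelled TSP-1 null diet log2FC was -2.09 for Acot3 and -0.83 for Acot12, and both calls held.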

How the results depend on the processing

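The count of members called in WT (7), and the counts of 0 on CDAHFD and for the interaction, were the same under every alternative run. In labelled TSP-1 null mice the count of 5 was 6 with median of ratios scaling and 7 without a fold change threshold, and with single mice left out it ranged from 3 (without NDKO mouse 2) to 6 (without NDKO mouse 1 or 4). On the control diet 1 member was called between genotypes without a fold change threshold. The labels' replicate numbers did not pair the mice (r of same-numbered libraries -0.133 to 0.0812 over 30 pairs, none over 0.1). A replicate block changed no member's call and gave 7097, 6668, 677, 61 and 86 genes called for diet in WT, diet in labelled TSP-1 null mice, genotype on the control diet, genotype on CDAHFD and the interaction, against 7083, 6669, 693, 72 and 94.

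Direction turned with median of ratios scaling for Bdh1 by diet in WT (-0.50) and Acot2 by diet in labelled TSP-1 null mice (-0.39). With single mice left out it turned for Acot2 by diet in labelled TSP-1 null mice (-0.17 to 0.42, negative without NDKO mouse 5). For genotype on CDAHFD it turned for Acat1 (-0.00385 to 0.15), Acot3 (-0.12 to 0.90) and Acot4 (-0.13 to 0.27), all without HFWT mouse 1 and Acot4 also without HFKO mouse 4 (-0.032), and for Acot8 (-0.0022 to 0.048, without HFWT mouse 4). The Acot12 interaction ranged from -0.14 to 0.00184 and turned without NDWT mouse 2. The log2 ratio of Acot3 to Acot4 between genotypes on the control diet ranged from -0.15 to 0.11 and that of Acat1 to Bdh1 on CDAHFD from -0.12 to 0.017, and none of these results was called. Genes called for genotype on the control diet were 393 with a pseudocount of 1 and 1899 without a fold change threshold, and those for diet in labelled TSP-1 null mice were 10406 without it. Genes called for genotype on CDAHFD were 127 with no filter, 163 without a fold change threshold, 40 with only the groups compared, 132 with voom and 38 to 84 with single mice left out. For the interaction they were 54 with no filter and 36 to 184 with single mice left out. The cause of these shifts was not tested. With 5 mice a group, intervals of Acot1, Acot2, Acot3 and Acot4 span over 1 log2 unit, which limits what the genotype comparisons can show. Levels between genes depend on the gene lengths of the table, and no protein or metabolite was measured in these files.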

Other observations

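Of the 6 genes of acetate and acetyl-CoA handling, 2 rose and 3 fell in WT and 2 rose and 2 fell in labelled TSP-1 null mice, or 1 and 3, and 1 and 4, with median of ratios scaling. Of all genes 44.1% and 41.9% were called higher and 4.62% and 4.0% lower, or 22.7% and 22.2% higher and 15.4% and 13.6% lower with that scaling, against which counts of a list of 6 show little. Acss1, a mitochondrial acetyl-CoA synthetase, rose from 0.101 ± 0.0278 FPKM (SD, n = 5) in NDWT to 1.47 ± 0.174 in HFWT (log2FC 2.97, SE 0.21) and had a log2FC of 2.13 in labelled TSP-1 null mice, called on both scales. Crat, carnitine acetyltransferase, which exchanges acetyl-CoA for acetylcarnitine, fell from 47.1 ± 8.56 FPKM to 14.6 ± 3.66 in WT (log2FC -1.70, SE 0.18) and had a log2FC of -0.87 in labelled TSP-1 null mice, also called on both. Acly, a cytosolic source of acetyl-CoA, had log2FC of 0.68 and 0.78, which were 0.12 and 0.25 and no longer called with median of ratios scaling. Acss3, another synthetase, was lower in NDKO (4.09 ± 1.06 FPKM) than in NDWT (6.89 ± 1.54, log2FC -0.75, SE 0.20, FDR 0.0169).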
